A study of Homo sapiens with 6 samples.

Results

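The CEACAM and PSG genes lie together on the long arm of human chromosome 19, and the region examined here runs from 42.00 to 43.85 Mb of build hg19. It was defined by position and by gene family, not by any value of these maps. The members, lists and comparisons, however, were chosen with earlier results of these data known. The region holds 92 bins of 20 kb, out of 2790 bins on chromosome 19 and 140474 bins in the whole series. By the positions used to define it, CEACAM21 to CEACAM3 occupy 42.05 to 42.32 Mb (14 bins), CEACAM1 and CEACAM8 occupy 43.00 to 43.11 Mb (5 bins) and the PSG cluster occupies 43.20 to 43.80 Mb (30 bins). A stretch of other genes from 42.32 to 43.00 Mb (34 bins) separates the CEACAM groups. The remaining 9 bins lie in 3 short pieces, at either end of the region and between CEACAM8 and the PSG genes, and flanks of 500 kb were taken on both sides.

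Chromatin contacts were measured by Hi-C, which ligates and sequences DNA ends that lie close together in cross-linked nuclei. The cells were DKO1, a derivative of HCT116 with the DNA methyltransferase genes DNMT1 and DNMT3B knocked out, and HCT116 itself, an established human colorectal cancer line that the labels call WT. Each line has 3 libraries, which were taken as pooled, because all 3 are labelled with the same files: 1 compartment track and 1 list of domains. No value below therefore has a replicate error or a test between the lines, the SDs given are over neighbouring bins, and DKO1 stands for a single knockout line, known to keep a truncated DNMT1 with some activity. DNA methylation and RNA of these genes were not analysed here.

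The compartment score is PC1, the first principal component of the contact map, which the authors deposited per bin with a mean of 0 and an SD of 1 on each chromosome. It is given here in units of that SD. A positive score is read as compartment A, which holds open chromatin and most active genes, and a negative score as compartment B, which holds compact chromatin. Over chromosome 19, 55.1% of bins were in A in DKO1 and 58.5% in HCT116, and the median difference between the lines, DKO1 minus HCT116, was 0.03. Read depth of the maps is unknown.

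Carcinoembryonic antigen-related cell adhesion molecules are surface glycoproteins of the immunoglobulin superfamily. CEACAM5 is carcinoembryonic antigen itself, the serum marker used in colorectal cancer, and CEACAM6 is its close relative on epithelial cells and granulocytes. CEACAM7 is a further membrane-anchored member of colon epithelium. CEACAM1 carries inhibitory signalling motifs in its tail and acts as a co-inhibitory receptor. CEACAM3 is a receptor of granulocytes for the uptake of bacteria, CEACAM4 is a related granulocyte protein with an activating motif, and CEACAM8 is a granulocyte surface marker. The pregnancy-specific glycoproteins encoded by the PSG genes are secreted members of the same family, made mainly by the syncytiotrophoblast of the placenta. DNA methylation by DNMT1 and DNMT3B acts on CpG sites, and promoters poor in CpG lie outside CpG islands.

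All 8 listed CEACAM genes were matched by symbol in the RefSeq table of GRCh38.p14, which was used for names and neighbours only, since the maps are on hg19. Their order there was CEACAM21, CEACAM4, CEACAM7, CEACAM5, CEACAM6, CEACAM3, CEACAM1 and CEACAM8. The 10 coding PSG genes followed as PSG3, PSG8, PSG1, PSG6, PSG7, PSG11, PSG2, PSG5, PSG4 and PSG9. No other coding gene lay between CEACAM8 and PSG3, and 5 CEACAM pseudogenes were interspersed among the PSG genes. Between CEACAM3 and CEACAM1 the table lists 23 coding genes of other families, among them RPS19, a ribosomal protein gene, CD79A, a part of the B cell receptor, GSK3A, a protein kinase, and CIC and ERF, which encode transcriptional repressors. Single genes were not assigned to bins, because gene positions on hg19 were not used here.

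The gene starts of the family share a trait that the choice of the region did not use, namely that they hold few CpG sites. The 250 bases upstream of the annotated start are printed for members of each group and for GSK3A, as an example of the genes between, with every CpG in capitals. They are RefSeq sequences of GRCh38.p14, read 5′ to 3′ along the strand of the gene. CEACAM5 is at chr19:41708376-41708625 (plus strand), CEACAM6 at chr19:41755280-41755529 (plus strand) and CEACAM1 at chr19:42528482-42528731 (minus strand). CEACAM8 is at chr19:42594925-42595174 (minus strand), PSG3 at chr19:42740482-42740731 (minus strand), PSG4 at chr19:43205639-43205888 (minus strand) and GSK3A at chr19:42242603-42242852 (minus strand).
CEACAM5: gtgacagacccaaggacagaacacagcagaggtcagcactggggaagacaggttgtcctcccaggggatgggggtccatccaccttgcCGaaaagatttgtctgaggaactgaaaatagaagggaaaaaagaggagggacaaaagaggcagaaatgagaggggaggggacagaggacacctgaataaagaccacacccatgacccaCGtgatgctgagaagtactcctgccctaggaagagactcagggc
CEACAM6: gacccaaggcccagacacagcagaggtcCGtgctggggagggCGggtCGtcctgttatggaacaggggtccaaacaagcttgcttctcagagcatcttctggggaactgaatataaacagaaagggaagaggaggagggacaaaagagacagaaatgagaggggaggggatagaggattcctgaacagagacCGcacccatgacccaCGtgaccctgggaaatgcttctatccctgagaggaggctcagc
CEACAM1: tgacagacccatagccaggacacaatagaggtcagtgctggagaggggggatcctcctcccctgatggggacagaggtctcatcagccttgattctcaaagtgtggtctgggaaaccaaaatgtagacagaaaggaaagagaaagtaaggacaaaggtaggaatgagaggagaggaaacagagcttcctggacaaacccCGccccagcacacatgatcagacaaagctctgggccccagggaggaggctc
CEACAM8: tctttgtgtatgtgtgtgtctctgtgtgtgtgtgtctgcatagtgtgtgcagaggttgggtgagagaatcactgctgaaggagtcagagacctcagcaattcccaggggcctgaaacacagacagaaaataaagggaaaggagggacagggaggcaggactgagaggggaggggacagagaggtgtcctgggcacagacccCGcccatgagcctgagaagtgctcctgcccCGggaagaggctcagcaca
PSG3: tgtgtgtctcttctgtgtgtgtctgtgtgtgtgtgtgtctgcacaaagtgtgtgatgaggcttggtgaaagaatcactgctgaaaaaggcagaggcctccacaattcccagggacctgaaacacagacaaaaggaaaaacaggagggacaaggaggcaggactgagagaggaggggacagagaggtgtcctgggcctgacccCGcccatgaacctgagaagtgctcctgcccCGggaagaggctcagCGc
PSG4: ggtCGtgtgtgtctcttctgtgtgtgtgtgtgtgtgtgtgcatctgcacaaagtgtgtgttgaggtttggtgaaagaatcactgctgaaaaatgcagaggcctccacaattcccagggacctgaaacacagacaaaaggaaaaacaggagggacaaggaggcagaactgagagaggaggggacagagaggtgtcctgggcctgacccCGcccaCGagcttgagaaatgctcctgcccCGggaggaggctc
GSK3A: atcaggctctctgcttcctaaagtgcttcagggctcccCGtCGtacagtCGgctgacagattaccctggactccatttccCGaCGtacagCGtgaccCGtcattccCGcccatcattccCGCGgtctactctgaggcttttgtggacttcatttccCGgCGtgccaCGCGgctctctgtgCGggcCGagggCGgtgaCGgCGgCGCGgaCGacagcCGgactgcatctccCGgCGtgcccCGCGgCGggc

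In windows of 300 bases, which add the 50 bases after the start, the letters CG were counted as CpG sites. All 9 annotated starts of the 8 CEACAM genes held 1 to 5, with a median of 3. The starts of the 3 PSG genes that the table holds, PSG3, PSG4 and PSG5, also held 1 to 5. In contrast, the 31 starts of 20 of the genes between held a median of 24 (3 to 52). Over all promoters of the table the median was 14, and 33.7% had 5 or fewer, against 16.2% of those on chromosome 19 and 9.68% of those between the CEACAM groups. CEACAM5 had 2 sites and CEACAM6 had 5, while GSK3A had 34. The GC content had a median of 54.8% over the 12 family starts, 65.7% over the starts between and 58.7% over all promoters.

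The family sequences resemble each other to different degrees. In global alignments of the 250 upstream bases, PSG3 and PSG4 were 91.4% identical. PSG3 and CEACAM8, at 85.5%, were the most alike of the 27 pairs of a CEACAM and a PSG start, whose median was 57.5% and lowest 46.6%. CEACAM7 and CEACAM5 were 80.5% identical, CEACAM5 and CEACAM6 74.6%. The median over the 36 pairs of CEACAM starts was 64.2%. Reads from near-identical copies are hard to place, and how the authors treated them is not given in the sources used here. Every bin of the region had a score in both lines, but the number of reads behind it is unknown, and the part of such copies in the results was not tested.

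**Figure D1:**
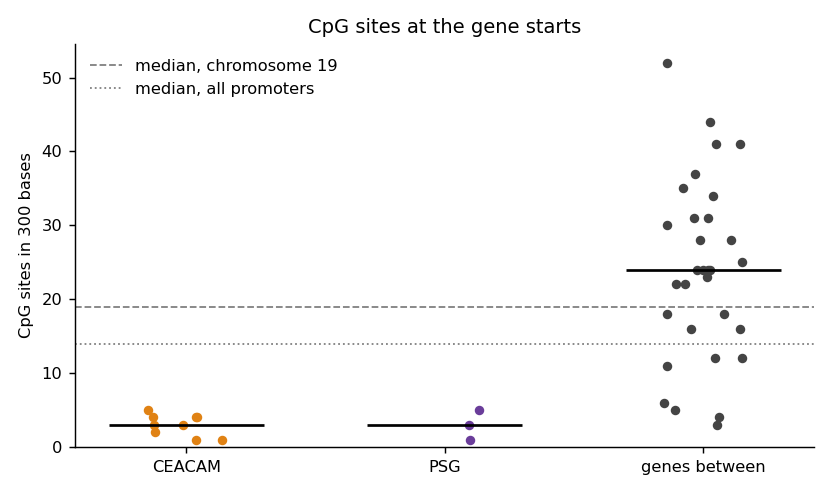
CpG sites in 300 bases around annotated gene starts (vertical axis), 1 point per start, for the CEACAM genes, the PSG genes PSG3, PSG4 and PSG5, and the genes between CEACAM3 and CEACAM1. Black bars are medians and the grey lines are the medians of chromosome 19 (19) and of all promoters (14). All 12 family starts lie at 5 or below.

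In both lines the genes between the CEACAM groups formed the strongest A segment of the region, and the family genes lay on its slopes or in the trough beyond it. From 42.32 to 43.00 Mb the mean PC1 was 1.03 ± 0.25 in DKO1 and 0.95 ± 0.26 in HCT116 (SD over 34 bins). CEACAM21 to CEACAM3 sat in a shallow dip, with 0.13 ± 0.24 in DKO1 and 0.28 ± 0.13 in HCT116. CEACAM1 and CEACAM8 lay on the descent into compartment B, with 0.01 ± 0.15 in DKO1 and -0.27 ± 0.17 in HCT116. The PSG cluster was at -0.22 ± 0.18 in DKO1 and at -0.86 ± 0.17 in HCT116. The contrast of the PSG cluster with the genes between was thus -1.25 in DKO1 and -1.81 in HCT116, while that of CEACAM21 to CEACAM3 with the same genes was -0.90 and -0.67. So the PSG genes stood closer to their neighbours in DKO1, and the proximal CEACAM genes stood further from them.

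**Figure D2:**
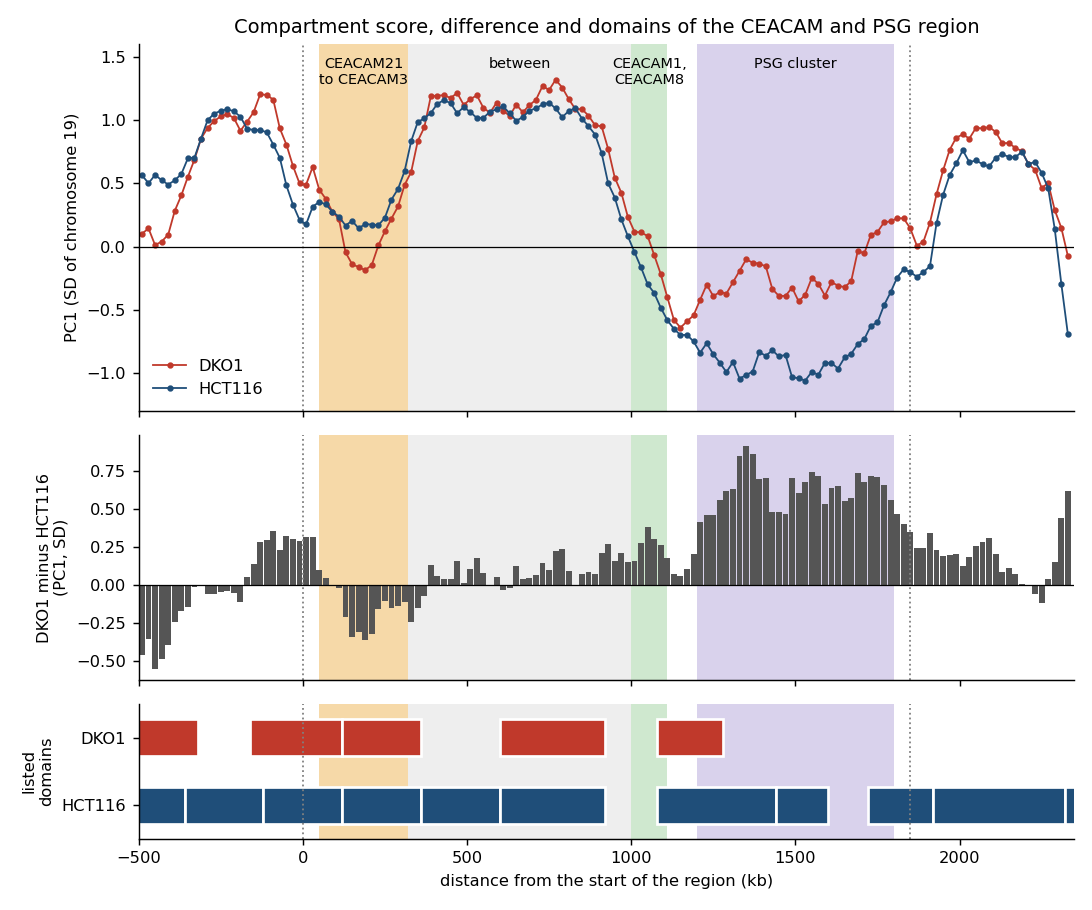
PC1 per 20 kb bin in DKO1 and HCT116 (top), the difference DKO1 minus HCT116 (middle) and the listed domains (bottom), against distance from the start of the region in kb. Shaded bands are the 4 gene stretches and dotted lines the ends of the region. The difference is above 0 in all 30 bins of the PSG cluster, and between the start of the region and 43080000 the listed borders are at the same 5 positions in both lines.

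The PSG cluster held the large differences of the region. In DKO1 its bins had a lowest, median and highest PC1 of -0.43, -0.29 and 0.20, against -1.06, -0.87 and -0.36 in HCT116. Only 1 HCT116 bin, the last of the cluster, lay within the DKO1 range. PC1 was higher in DKO1 in 30 of 30 bins, by 0.64 ± 0.12 on average (SD over bins) and by at least 0.42. With a difference of at least 0.5 SD taken as a call, 24 of the 30 PSG bins were called higher in DKO1, against 2.11% of the bins of chromosome 19 and 14.9% of all bins of the series. These 24 bins are 40.7% of the 59 bins so called on chromosome 19, although the cluster makes up 1.08% of the chromosome. No bin of the region was called lower by the same amount, where 4.84% of chromosome 19 was.

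The 5 bins of the region with the largest positive difference were all in the PSG cluster. The first was at 43340001 to 43360000, with -0.10 in DKO1 and -1.01 in HCT116, a difference of 0.91 that ranked 3 among the 2790 bins of chromosome 19. The bins on its sides, at 43360001 and 43320001, had differences of 0.86 and 0.85. The remaining ones, at 43540001 and 43680001, had 0.74 and 0.73. The 24 called bins formed 2 runs, of 8 bins at 43260001 to 43420000 and of 16 bins at 43480001 to 43800000. The first run averaged -0.21 in DKO1 and -0.94 in HCT116, and the second -0.17 in DKO1 and -0.82 in HCT116. Between them the difference was smallest at 43460001 to 43480000, with 0.47. Over the 30 bins of the PSG cluster the lines correlated with a Pearson r of 0.75 and a Spearman rho of 0.44. Over the 92 bins of the region they were 0.94 and 0.91. The PSG bins span a narrower range, with an SD in HCT116 of 0.17 against 0.81 over the region, so these values are not directly comparable. Pearson r was 0.73 in the proximal flank and 0.94 in the distal flank. These are correlations across neighbouring bins of the same maps and have no test.

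The DKO1 track also had another low point. In HCT116 PC1 sank through the CEACAM1 and CEACAM8 stretch and on into the PSG cluster, where the lowest bin of the region lay at -1.06. In DKO1 the lowest bin was at 43140001 to 43160000, between CEACAM8 and the PSG genes, with -0.64 in DKO1 and -0.70 in HCT116. The 5 bins of this piece averaged -0.55 ± 0.09 in DKO1 and -0.67 ± 0.06 in HCT116, a difference of 0.12. Next to it the first PSG bin, at 43200001 to 43220000, already differed by 0.42. This piece, which holds no coding gene by the RefSeq order, thus scored more alike in the maps than the cluster beyond it.

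**Figure D3:**
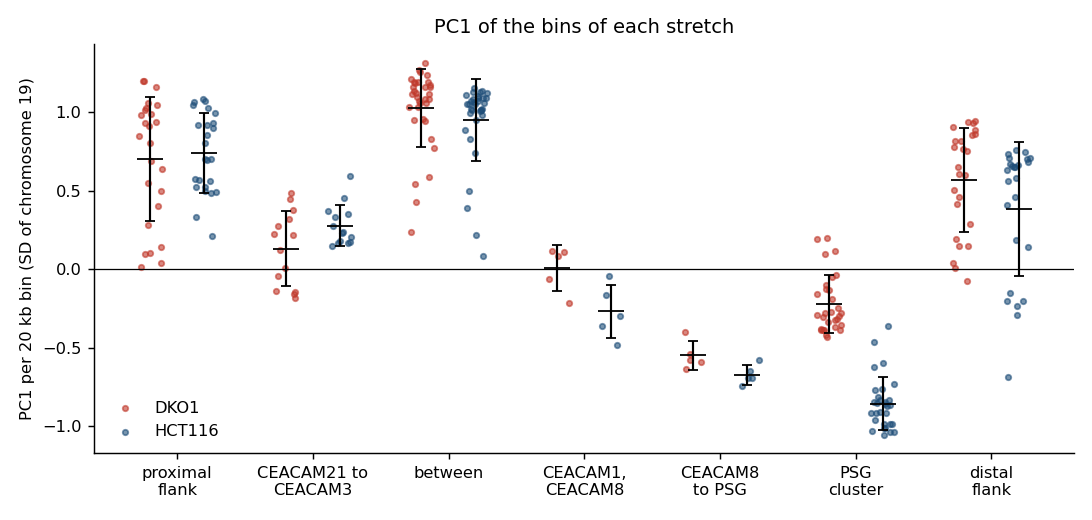
PC1 of each 20 kb bin (points) in DKO1 (left) and HCT116 (right) for the gene stretches, the piece between CEACAM8 and the PSG genes, and the flanks. Black bars are the mean with the SD over bins. The DKO1 and HCT116 clouds lie apart in the PSG cluster and overlap in the stretch between the CEACAM groups.

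Most bins of chromosome 19 with the same score in HCT116 differed less between the lines. Outside the region, 246 bins of the chromosome had an HCT116 score within the range of the PSG bins, -1.06 to -0.36. The median difference was 0.65 in the PSG cluster, against -0.11 in those 246 bins (quartiles -0.29 and 0.07), and 0 of the 246 reached the PSG median. None of them was in A in DKO1. Over all chromosomes 23261 bins lay in the same range, with a median difference of -0.03, and 12.5% of them reached the PSG median. Of these 23261 bins 11.2% were in A in DKO1, against 13.3% of the PSG bins. Single bins of this level elsewhere on chromosome 19 came close. That at 44320001 to 44340000 in the distal flank had -0.07 in DKO1 and -0.69 in HCT116, a difference of 0.62. Some runs of bins with lower HCT116 scores, outside this comparison, differed by more than the PSG cluster on average. The 9 bins at 57960001 to 58140000 averaged -0.58 in DKO1 and -1.39 in HCT116, and 7 bins at 52480001 to 52620000 averaged -0.88 and -1.59. PC1 is scaled per chromosome, so scores of different chromosomes are not on 1 absolute scale.

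**Figure D4:**
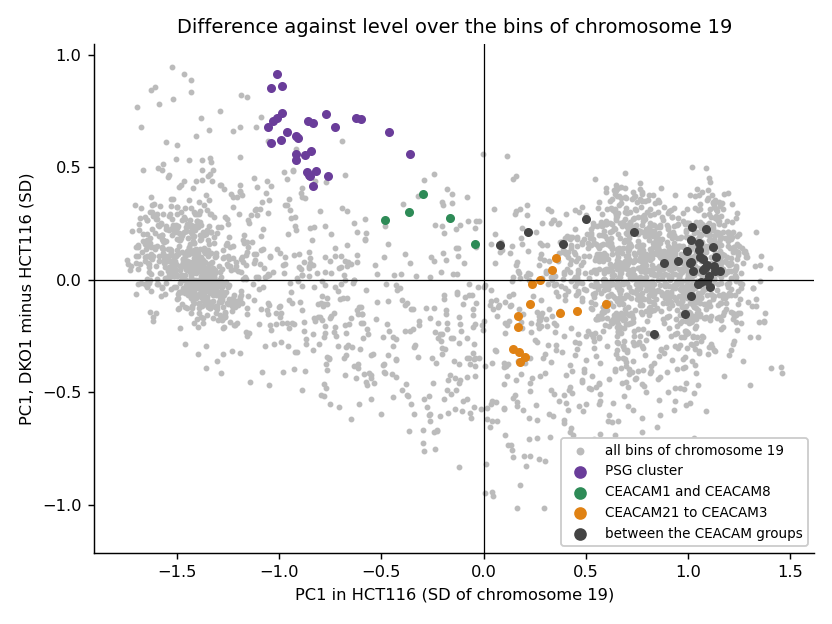
Difference in PC1, DKO1 minus HCT116 (vertical axis, SD), against PC1 in HCT116 (horizontal axis, SD) for the 2790 bins of chromosome 19 (grey), with the bins of the 4 gene stretches in colour. The PSG bins lie between 0.42 and 0.91, above most other bins of the same HCT116 level, of which none reaches the PSG median of 0.65.

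Whole intervals were compared in the same way. In HCT116 the CEACAM1, CEACAM8 and PSG genes shared 1 B interval, at 43000001 to 43920000, which was 1 of 11 B intervals of chromosome 19 that were at least 200 kb and under 2 Mb long. Its mean PC1 was -0.19 in DKO1 and -0.69 in HCT116, a difference of 0.50 that was the largest of the 11. The other 10 had a median difference of -0.08, from -0.62 to 0.41, and means in DKO1 from -1.43 to -0.52. The second largest, 0.41, belonged to the next B interval along the chromosome, at 44300001 to 45060000, with -0.52 in DKO1 and -0.93 in HCT116. In the PSG interval 13 of 46 bins were in A in DKO1, where the others had 1 such bin at most.

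**Figure D5:**
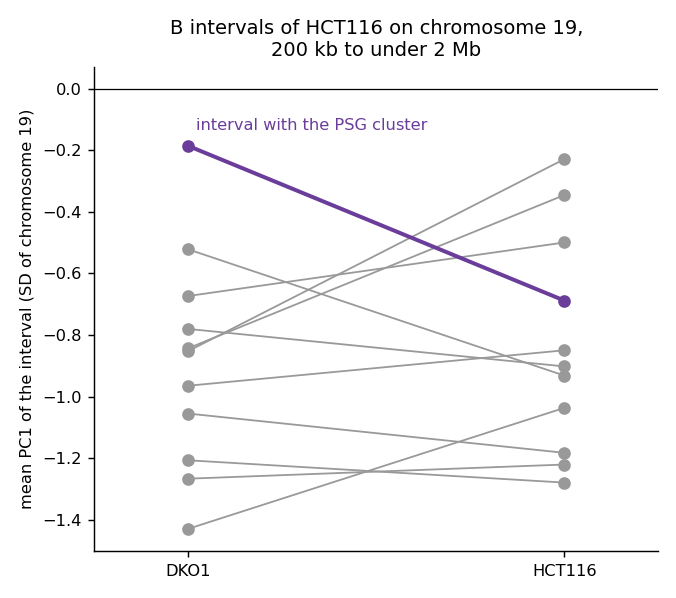
Mean PC1 in DKO1 (left) and HCT116 (right) of the 11 B intervals of chromosome 19 that were at least 200 kb and under 2 Mb long in HCT116, 1 line per interval. The interval with the PSG cluster, in purple, has the highest DKO1 mean, at -0.19, against -0.69 in HCT116.

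The borders of this B interval lay further in on both sides in DKO1. It ran from 43060001 to 43720000 in DKO1 (660 kb) and from 43000001 to 43920000 in HCT116 (920 kb). On the proximal side 3 bins at 43000001 to 43060000, in the CEACAM1 and CEACAM8 stretch, were in A in DKO1 with a mean of 0.10 and in B in HCT116 with -0.17. On the distal side 10 bins at 43720001 to 43920000, from the last PSG bins into the flank, had a mean of 0.14 in DKO1 and -0.33 in HCT116. That run of 10 was the longest of the 13 B-to-A runs on chromosome 19, whose median was 1 bin. Within the region 9 of 92 bins were called A in DKO1 and B in HCT116. The same class held 1.04% of the chromosome's bins and 7014 of the 140474 bins of the series. None of the 9 had an absolute score of 0.5 SD in both lines, so these are not full exchanges of compartment. The DKO1 scores in these runs stayed near 0, at 0.22 at most, while HCT116 reached -0.62 at 43720001 to 43740000. With the chromosome median subtracted no bin of the 2 runs counted as switched, because these scores lie below the DKO1 median of 0.30.

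CEACAM1 and CEACAM8 went with the PSG genes in direction and less in size. Their 5 bins, in order along the chromosome, had PC1 values of 0.12, 0.11, 0.08, -0.06 and -0.22 in DKO1, against -0.04, -0.16, -0.30, -0.37 and -0.48 in HCT116. Each bin was higher in DKO1, with a mean difference of 0.28 ± 0.08, and none reached 0.5 SD. Elsewhere on chromosome 19 the 150 bins of the same HCT116 level had a median difference of -0.24, and 5.33% of them reached the median of this stretch. Over all chromosomes 17413 bins lay at that level, with a median difference of -0.19, and 20.1% of them reached it. The mean score of this stretch in DKO1 lies at 0 and its sign has no weight, since it turns to -0.06 when bins that only overlap the stretch are included.

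CEACAM21 to CEACAM3, the group with CEACAM5 and CEACAM6, was the only one of the 4 stretches with a lower mean in DKO1, and this direction depends on the scale. Its bins had a lowest, median and highest PC1 of -0.19, 0.17 and 0.49 in DKO1, against 0.14, 0.23 and 0.60 in HCT116, so the ranges overlap. The difference was -0.15 ± 0.15 on average, and 11 of the 14 bins were lower in DKO1. Bins of the same HCT116 level elsewhere on the chromosome had a median difference of -0.03, and 39.8% of them were as low as the median here or lower. With the chromosome median subtracted from each track the mean difference was -0.02, and on ranks among the bins of the chromosome it was 0.72 percentage points in the other direction.

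The dip itself was sharper in DKO1. In HCT116 all 14 bins stayed in A, on a floor between 0.14 and 0.24 from 42100001 to 42260000. In DKO1 5 bins at 42120001 to 42220000 lay below 0, with -0.04, -0.14, -0.16, -0.19 and -0.14, against 0.17, 0.20, 0.14, 0.18 and 0.17 in HCT116. Their mean was -0.13 in DKO1 and 0.17 in HCT116. These 5 bins were the only ones of the 92 in the region called B in DKO1 and A in HCT116. That is close to the share of this class on chromosome 19, which was 4.44% of bins. Over the whole series 14263 of 140474 bins were of this class. The chromosome had 36 runs of this class, 10 of them of 5 bins or more, and the longest had 18. A run of this length is thus not particular to the region. In DKO1 the 5 bins of the dip formed a B interval of 100 kb. It lay between A intervals at 41480001 to 42120000 and at 42220001 to 43060000, where HCT116 had a single A interval from 40140001 to 43000000. With the chromosome median subtracted none of the 5 counted as switched, because the whole floor then fell below 0 in both lines.

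The 5 bins of the region with the largest negative difference were 4 of these 5 and the first bin of the stretch of other genes. The lowest was at 42180001 to 42200000, with -0.19 in DKO1 and 0.18 in HCT116, a difference of -0.36. The fifth, at 42320001 to 42340000, had 0.59 in DKO1 and 0.83 in HCT116. Even the lowest of them ranked 259 among the negative differences of chromosome 19.

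The genes between the CEACAM groups had nearly equal scores in both maps. The bins ran from 0.23 to 1.32 in DKO1 with a median of 1.11, and from 0.08 to 1.16 in HCT116 with a median of 1.05. PC1 was higher in DKO1 in 27 of 34 bins, by 0.08 ± 0.11 on average, and every bin was in A in both lines. Bins of that level elsewhere on the chromosome had a median difference of 0.02. With the chromosome median subtracted the mean difference was 0.21.

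The short pieces at the ends of the region had higher scores in DKO1, with 0.56 in DKO1 and 0.25 in HCT116 before CEACAM21 and 0.22 in DKO1 and -0.21 in HCT116 after the PSG cluster. Beyond them the flanks differed from each other. In the distal flank the A interval ran from 43720001 to 44320000 in DKO1 and from 43920001 to 44300000 in HCT116. The proximal flank, from 41.50 to 42.00 Mb, averaged 0.70 ± 0.40 in DKO1 and 0.74 ± 0.25 in HCT116, with a difference of -0.04 ± 0.27. This mean hides opposite parts, from -0.55 at 41540001 to 41560000 to 0.35 at 41900001 to 41920000. The distal flank, from 43.85 to 44.35 Mb, averaged 0.57 ± 0.33 in DKO1 and 0.38 ± 0.43 in HCT116, with a difference of 0.19 ± 0.16. With a flank of double width the difference was 0.320, and with the chromosome median subtracted 0.316. PC1 was higher in DKO1 in 22 of its 25 bins. Only its last bin, at the edge of the next B interval, differed by at least 0.5 SD. After the mean of the flanks was subtracted from each track, the PSG difference was 0.56 and that of the genes between was 0.00187. That of CEACAM21 to CEACAM3 was then -0.22.

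Topologically associating domains, stretches that contact themselves more than their surroundings, were listed by the authors on a 40 kb grid without a score. Of the domains that touch the region 4 were in DKO1 and 7 in HCT116. The DKO1 list is shorter as a whole, with 93 domains on chromosome 19 against 164 in HCT116. The difference in cover was uneven along the region. Listed domains covered all of CEACAM21 to CEACAM3 in both lines, 52.9% of the stretch between in DKO1 and 88.2% in HCT116, and 13.3% of the PSG cluster in DKO1 and 80% in HCT116. Over chromosome 19 they covered 45.9% of the length in DKO1 and 78.0% in HCT116.

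The proximal CEACAM genes lay across a pair of adjoining domains with a common border in both lists. The domain from 42120001 to 42360000, of 240 kb, was identical in DKO1 and HCT116 and spans most of the CEACAM21 to CEACAM3 stretch. Its mean PC1 was 0.16 in DKO1 and 0.38 in HCT116. The border at 42120000, where it meets the domain before, is also the point at which the DKO1 track crossed into B. The domain before it started at 41840001 in DKO1 and at 41880001 in HCT116. Among the genes between, the domain from 42600001 to 42920000 was the same in both lists, and that from 42360001 to 42600000 was listed in HCT116 only.

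The lists parted from the PSG cluster onward. The difference went on through the distal flank, where listed domains covered 0% in DKO1 and 100% in HCT116. Both lists had a domain that began at 43080001, in the CEACAM1 and CEACAM8 stretch. It ended at 43280000 in DKO1 (200 kb) and at 43440000 in HCT116 (360 kb). The domains at 43440001 to 43600000 and at 43720001 to 43920000 were listed in HCT116 and had no overlap with any DKO1 domain. From 43280001 to the end of the distal flank DKO1 had no listed domain. The HCT116 domain at 43440001 to 43600000 had a mean PC1 of -0.35 in DKO1 and -0.97 in HCT116. The one at 43720001 to 43920000 coincides with the run of 10 bins described above, with 0.14 in DKO1 and -0.33 in HCT116.

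By counts, 5 of the 6 DKO1 borders inside the region were found in HCT116 within 40 kb, and 5 of the 8 HCT116 borders in DKO1. Over chromosome 19 the shares were 93.8% and 67.1%, and the counts here are too few to set against them. The 5 shared borders, at 42120000, 42360000, 42600000, 42920000 and 43080000, were at the same position in both lists. The unshared ones, 43280000 in DKO1 and 43440000, 43600000 and 43720000 in HCT116, all lay in the PSG cluster. With 80% reciprocal overlap as the criterion, 3 of the 4 DKO1 domains and 3 of the 7 HCT116 domains had a match, against 81.7% and 46.3% on the chromosome. The number of domains a caller finds depends on the depth of the map, which is unknown, so a missing domain in DKO1 cannot be told apart from one that was not detected.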

How the data were processed

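Hi-C of DKO1 and HCT116 (3 libraries each) was represented by 1 pooled track and 1 pooled domain list per line, per the labels. HiC-Pro, HOMER 4.6 and hg19 (GRCh37) appear in the submitters' processing notes, which assign them no role. For the domain caller and read filters no name was found in the sources used here. The PC1 score was deposited per 20 kb bin, scaled per chromosome, as the values show. The other deposited values are domain starts and ends on a 40 kb grid. Coordinates are 1-based for bins and domains, and borders are given as the grid position.

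Bins were joined by position and assigned to a stretch by their centre. The sign of PC1 gave the compartment, and a difference of 0.5 SD was the call for size. Borders were matched within 40 kb and domains at 80% reciprocal overlap. With 1 value per line no test was made. The members, lists and comparisons were chosen with earlier results of these data known. Regions named are the stretches, every interval, switched run and domain touching the region, and the 5 largest differences each way. The functions for runs and overlaps were tested on simulated data. Alternatives covered centring, smoothing, bin assignment, flank width, tolerance and overlap. Gene names and 250 upstream bases came from RefSeq tables of GRCh38.p14, aligned with Biopython 1.88, and Python 3.11.15 was used. The count of CpG sites and the comparisons by HCT116 level and by interval describe and were not tested.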

Additional observations from a re-analysis of the deposited data

How the results depend on the processing

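No paired analysis was possible because each line has 1 pooled track and 1 pooled domain list, so no library could be dropped either. A move was judged against the SD over bins, since there is no replicate spread. Subtraction of the flank mean and the use of ranks were chosen after seeing the data. The zero of PC1 matters most here. The median of chromosome 19 was 0.30 in DKO1 and 0.43 in HCT116, so subtracting it adds 0.13 to every difference. The mean difference became 0.21 for the genes between, 0.40 for CEACAM1 and CEACAM8, 0.76 for the PSG cluster and 0.0908 for the proximal flank, where it turned sign. On ranks, in percentage points, it turned to 0.72 for CEACAM21 to CEACAM3 and 0.64 for the proximal flank, and was 11.7 for the PSG cluster. In score units the PSG difference stayed between 0.56 and 0.76. The mean level with the median subtracted turned to -0.17 in DKO1 and -0.15 in HCT116 for CEACAM21 to CEACAM3, and to -0.29 in DKO1 for CEACAM1 and CEACAM8. That last level was also -0.00631 after smoothing and -0.0606 with overlapping bins. With 0.5 SD required in both lines, 0 bins switched in either direction. With the median subtracted 6 switched to A and 0 to B, but these 6 were other bins than the 9 of the main setting. None of the 9 then counted as switched, because their DKO1 scores, at 0.22 at most, lie below the DKO1 median of 0.30. Counts of domains, of intervals and of matched domains stayed within 1.5 times, and the shared borders were 5 at tolerances of 0, 2 and 3 grid steps. The depth of the maps limits the domain counts and is unknown.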

Other observations

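Outside the PSG cluster, 35 bins of chromosome 19 had a PC1 higher in DKO1 by at least 0.5 SD. They lay in 9 short runs. The longest, 9 bins at 57960001 to 58140000 near the distal end of the chromosome, had a mean of -0.58 in DKO1 and -1.39 in HCT116. The next, 7 bins at 52480001 to 52620000, had -0.88 in DKO1 and -1.59 in HCT116. The largest single difference of the chromosome, 0.94, was at 58040001 to 58060000. The nearest runs to the PSG genes lay in the next B interval. The first, 2 bins at 44320001 to 44360000, had -0.21 in DKO1 and -0.81 in HCT116, and the second, 6 bins at 44460001 to 44580000, had -0.45 in DKO1 and -1.16 in HCT116. In all 9 runs the mean score had the same sign in DKO1 and HCT116.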
